A study of Mus musculus with 12 samples.

Results

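The comparison asked what a vector for the lymphatic growth factor VEGF-C did to hippocampal RNA in aged mice that were also treated with an antibody against amyloid. It set 3 mice of the group mVEGF-C+mAdu (mice 10, 11 and 12) against 3 mice of the group eGFP+mAdu (mice 4, 5 and 6), which are 6 of the 12 mice sequenced, and covered all 14881 genes of the deposited count table. All 12 mice were males of the APPswe strain, aged 22 to 26 months, which carry a transgene for amyloid precursor protein with the Swedish mutation. The promoter of that transgene is not given in the sources used here. Each mouse of both groups received weekly intraperitoneal mAducanumab (mAdu) at 40 mg/kg, an antibody against aggregated amyloid beta. Each also received 5 µL of an adeno-associated virus of serotype AAV1 into the cisterna magna, where cerebrospinal fluid collects. The virus carried mouse VEGF-C (mVEGF-C) or, as control, enhanced green fluorescent protein (eGFP), in both cases behind the CMV promoter, which is active in many cell types. The other 6 mice received the same vectors with a control immunoglobulin (mIgG) at the same dose: mice 1 to 3 were eGFP+mIgG and mice 7 to 9 were mVEGF-C+mIgG. Group sizes were 3 mice each, and every library came from 1 hippocampus of 1 mouse per the series description, although the source label names brain meninges.

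VEGF-C is a secreted ligand of the receptor VEGFR-3, encoded by Flt4, and drives the growth and upkeep of lymphatic vessels. The brain itself holds no lymphatic vessels, but the dura around it does, and these meningeal vessels drain fluid, solutes and immune cells towards the neck. Antibodies such as aducanumab bind aggregated amyloid beta and engage microglia, the resident macrophages of the brain, through Fc receptors, so genes of microglia, of amyloid handling, of vessels and of the barriers between blood, fluid and brain were described here.

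Markers of hippocampal cells were present in the 6 libraries, and so were markers of other brain regions. The summed level of 17 markers of dentate granule cells was 991 to 1048 CPM (read counts scaled to a common library size) in eGFP+mAdu and 1030 to 1060 CPM in mVEGF-C+mAdu, and that of 23 markers of meningeal and perivascular fibroblasts was 425 to 702 and 402 to 420 CPM. Markers of neocortex summed to 835 to 887 CPM in eGFP+mAdu and 819 to 844 CPM in mVEGF-C+mAdu. Those of striatum summed to 270 to 276 and 244 to 260 CPM. Sums over unlike lists do not settle which tissue was taken. Of 16 markers of T and NK cells, 12 of B and plasma cells and 12 of neutrophils and monocytes, 2, 3 and 1 were in the table, so these cells were hardly measured. Library totals ran from 24222007 to 28098860 reads in the 6 libraries. Mouse 6 held the middle value of its group in 81.7% of 1712 genes that varied beyond counting noise, and mouse 12 in 86.8% of 1132 such genes. The same held for mouse 3 (82.3%) and mouse 9 (77.4%) of the mIgG groups, where an even share would give each mouse the same portion. If these libraries shared material with others of their group, every SD and p given here would be too small.

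App was far from even among the control mice of this comparison. It stood at 5487, 1342 and 3716 CPM in mice 4, 5 and 6, and at 5238, 5507 and 5347 CPM in mice 10, 11 and 12. Mouse 5 thus held 25.6% and mouse 6 held 71.0% of the median of the other 10 mice, in which App ran from 4721 to 5507 CPM. Prnp, the prion protein gene, was low in the same mice, at 3336, 1184 and 2448 CPM against 3434, 3359 and 3398 CPM in mice 10 to 12. The fitted log2 change was 0.61 (SE 0.291) for App and 0.55 (SE 0.218) for Prnp, and neither passed in edgeR's quasi-likelihood test (adjusted p = 0.353 and 0.268). Without mice 5 and 6 the change was -0.033 for App and 0.026 for Prnp. The part of low App in the results was not tested, and values without these 2 mice are given beside the gene groups below.

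**Figure D1:**
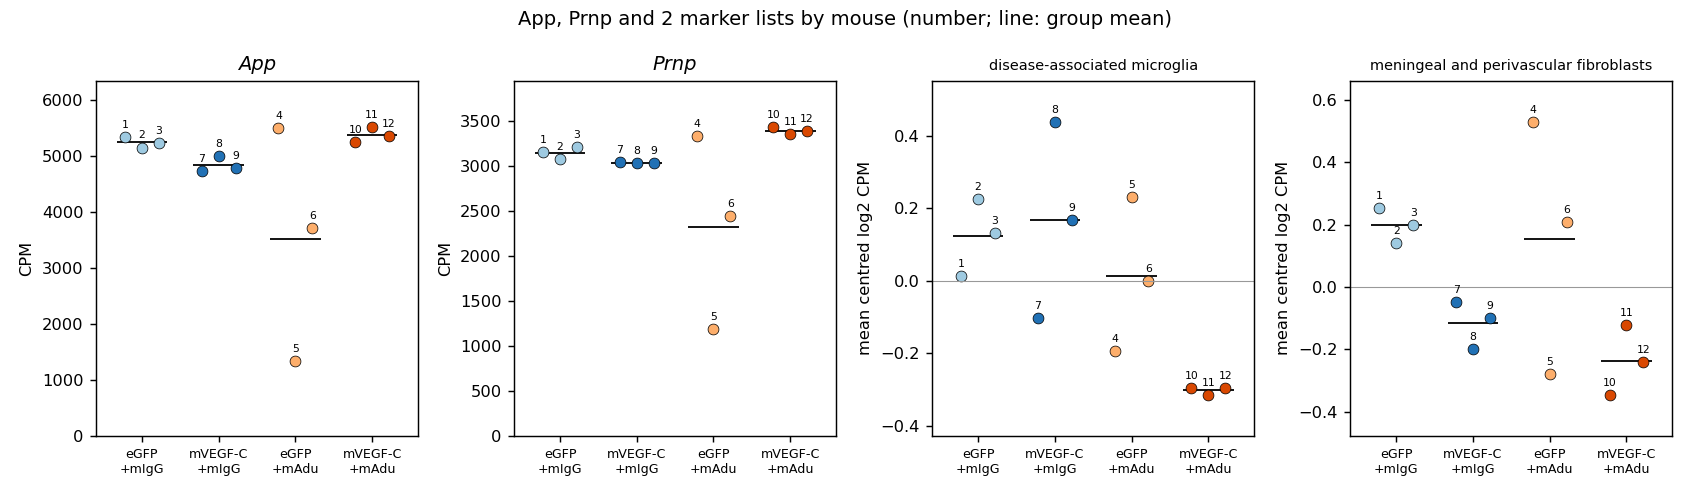
App and Prnp in CPM, and the mean centred log2 CPM of the lists of disease-associated microglia and of fibroblasts, for each of the 12 mice (points with the mouse number) with the group mean (line). Mouse 5 was the lowest of 12 for App and Prnp, the highest of its group for disease-associated microglia and the lowest of its group for fibroblasts.

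Across all genes the 2 vectors differed little. The median absolute log2 change was 0.075, 50.4% of genes had a change above 0 and 49.6% below 0, and those between the 5th and 95th percentile lay between -0.35 and 0.20. With p-values of edgeR's quasi-likelihood test adjusted by Benjamini and Hochberg across the 14881 genes, 7 genes passed the threshold of 0.05 (0.047%), of which 4 were higher with mVEGF-C (0.0269%) and 3 lower (0.0202%). At an unadjusted p under 0.05 there were 1109 higher genes (7.45%) and 1013 lower genes (6.81%). All 3 mVEGF-C mice lay above all 3 eGFP mice for 11.5% of genes and below them for 10.2%. These shares are the background against which the counts below stand. None of the 7 genes passed in the same comparison under mIgG, where 6 other genes did (0.0403%), 4 of them higher (0.0269%) and 2 lower (0.0134%), and 7.91% of genes had an unadjusted p under 0.05. Of the 7, 5 had the same sign there. The test of the difference between the antibodies passed for 2 genes (0.0134%), Ide among them, and 6.82% had an unadjusted p under 0.05.

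**Figure D2:**
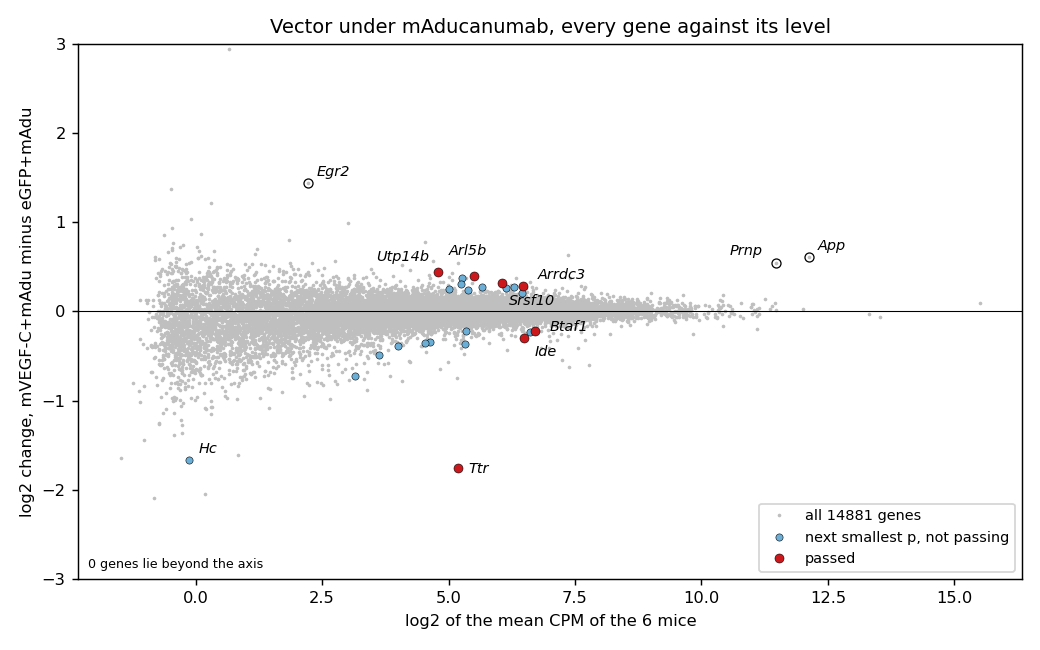
Log2 change between the vectors under mAducanumab against the log2 of the mean CPM of the 6 mice, with 1 point per gene. The 7 genes that passed are red, the next smallest p-values blue, and circles mark App, Prnp and Egr2. Ttr stands apart at -1.76, while the other 6 genes that passed lie between -0.30 and 0.44.

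The 4 genes that rose encode an Arf-like GTPase, a splicing regulator, an arrestin family member and a nucleolar protein. Arl5b (ENSMUSG00000017418, chromosome 2), an Arf-like small GTPase of the trans-Golgi network, stood at 35.8, 40.3 and 41.1 CPM in mice 4 to 6 and at 49.7, 54.2 and 49.9 CPM in mice 10 to 12. The groups did not overlap, and the mean of 3 mice rose from 39.0 ± 2.85 (SD) to 51.2 ± 2.54 CPM, which is 0.39 on the log2 scale (SE 0.0563, adjusted p = 0.0176, edgeR's quasi-likelihood test). The 6 mIgG mice, at 38.6 to 44.0 CPM, lay below all 3 mVEGF-C+mAdu mice, and the change there was 0.12.

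Srsf10 (ENSMUSG00000028676, chromosome 4), an SR protein that acts in splicing and is known for its control by dephosphorylation under heat shock, stood at 58.0, 60.2 and 58.8 CPM with eGFP and at 69.0, 76.7 and 75.1 CPM with mVEGF-C. The log2 change was 0.32 (SE 0.0484, adjusted p = 0.0265, edgeR's quasi-likelihood test). The mIgG mice ran from 58.2 to 66.0 CPM, again below the 3 mVEGF-C+mAdu mice.

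Arrdc3 (ENSMUSG00000074794, chromosome 13), an arrestin-domain protein that helps sort receptors for degradation, stood at 77.5, 82.5 and 80.8 CPM with eGFP and at 94.3, 102 and 96.9 CPM with mVEGF-C (log2 change 0.29, SE 0.0442, adjusted p = 0.0271, edgeR's quasi-likelihood test). Here the eGFP+mIgG mice lay between, at 85.5 to 91.8 CPM, while the mVEGF-C+mIgG mice, at 92.9 to 99.95 CPM, overlapped the mVEGF-C+mAdu mice.

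Utp14b (ENSMUSG00000079470, chromosome 1), a homologue of a factor of ribosomal RNA processing, stood at 21.2, 24.6 and 24.4 CPM with eGFP and at 30.3, 34.0 and 31.0 CPM with mVEGF-C (log2 change 0.44, SE 0.0710, adjusted p = 0.0325, edgeR's quasi-likelihood test). It is the eGFP+mAdu group that stood apart here, since the 6 mIgG mice ran from 27.3 to 32.0 CPM. Utp14b lies within Acsl3, an acyl-CoA synthetase gene read in the same direction, so reads of both genes could not be told apart with certainty. Acsl3 stood at 277 to 282 CPM with eGFP and 288 to 316 CPM with mVEGF-C, with a log2 change of 0.11 that did not pass (adjusted p = 0.241, edgeR's quasi-likelihood test). Arl5b overlaps Nsun6 on the opposite strand, which stood at 7.07 to 8.59 CPM in all 12 mice. Whether counting used the strand is not given in the sources used here.

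**Figure D3:**
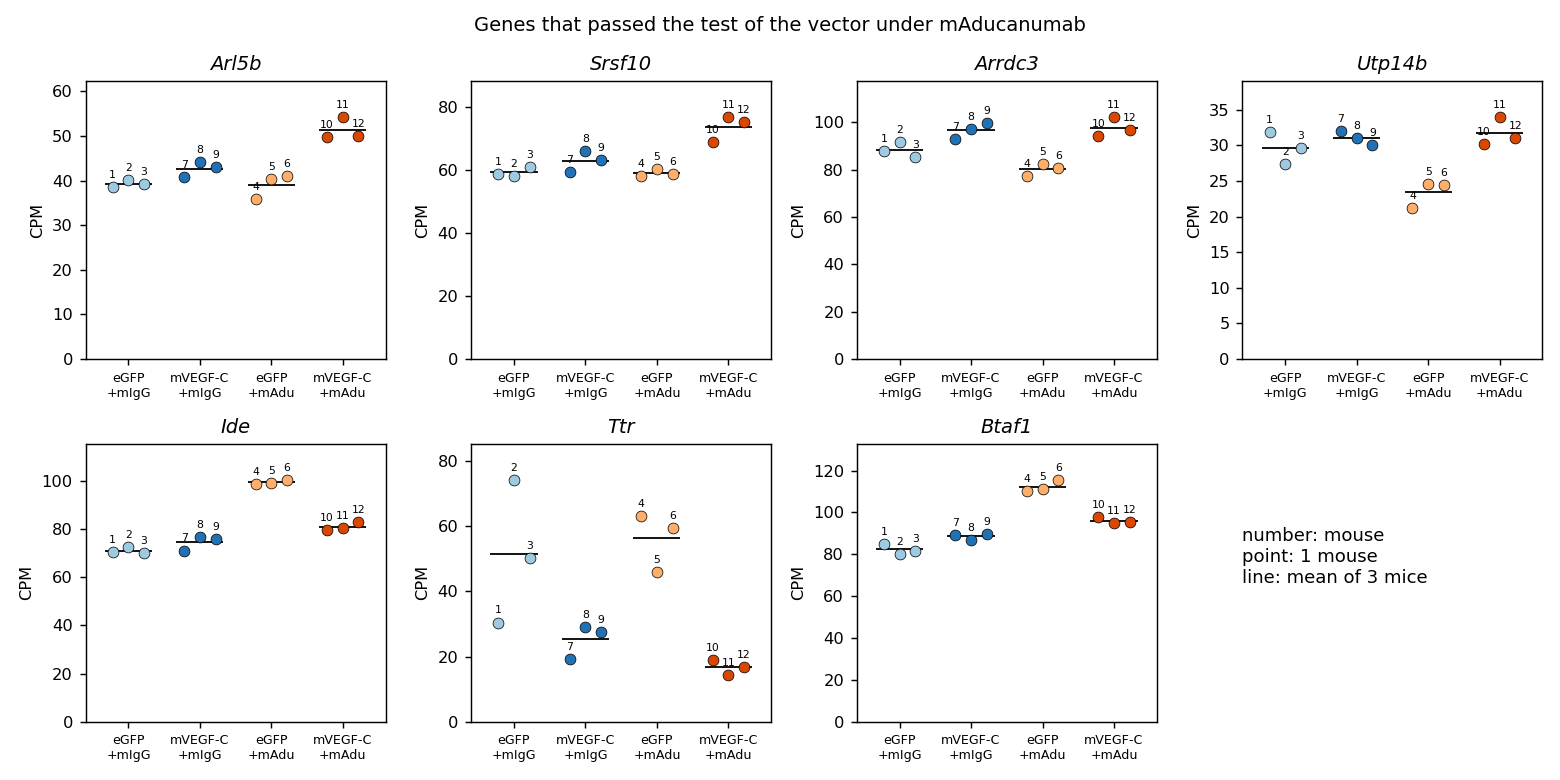
CPM of the 7 genes that passed, for each of the 12 mice (points with the mouse number) with the mean of each group (line), on axes that start at 0. For Arl5b and Srsf10 the 3 mVEGF-C+mAdu mice lie above the other 9, for Utp14b the 3 eGFP+mAdu mice lie below the other 9, and for Ide and Btaf1 the 3 eGFP+mAdu mice lie above the other 9.

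Promoters of these genes were read because several genes that answer to neuronal activity share a known control sequence, the cAMP response element, and a list of such genes is described further on. RefSeq promoters (GRCm38.p6, 250 bases before to 50 bases after an annotated start) were found for 6 of the 7 genes that passed, and the 300 bases of 3 of them and of Fos, the best known activity-regulated gene, are shown. Capitals mark the half-site TGACG on either strand (CGTCA on the other), and neighbouring half-sites overlap where the full palindrome TGACGTCA stands. Each sequence runs 5′ to 3′ on the strand of its gene.
Arl5b, chr2:15055070-15055369, plus strand: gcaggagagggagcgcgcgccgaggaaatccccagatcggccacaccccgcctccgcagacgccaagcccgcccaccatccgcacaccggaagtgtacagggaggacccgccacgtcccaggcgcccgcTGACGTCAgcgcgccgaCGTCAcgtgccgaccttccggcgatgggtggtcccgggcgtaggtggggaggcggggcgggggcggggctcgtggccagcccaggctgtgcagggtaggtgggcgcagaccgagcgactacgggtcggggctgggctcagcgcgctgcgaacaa
Srsf10, chr4:135855821-135856120, plus strand: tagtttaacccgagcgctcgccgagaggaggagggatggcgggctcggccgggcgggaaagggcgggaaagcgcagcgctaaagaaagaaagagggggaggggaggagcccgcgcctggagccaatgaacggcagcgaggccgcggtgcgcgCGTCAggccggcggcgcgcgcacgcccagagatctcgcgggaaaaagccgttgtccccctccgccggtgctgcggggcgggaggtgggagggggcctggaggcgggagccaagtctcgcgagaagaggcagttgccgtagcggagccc
Btaf1, chr19:36925829-36926128, plus strand: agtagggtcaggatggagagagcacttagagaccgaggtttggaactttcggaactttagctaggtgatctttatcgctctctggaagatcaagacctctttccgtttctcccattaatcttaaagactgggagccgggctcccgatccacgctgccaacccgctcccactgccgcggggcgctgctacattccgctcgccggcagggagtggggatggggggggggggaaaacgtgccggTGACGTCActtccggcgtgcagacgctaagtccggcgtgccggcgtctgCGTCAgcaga
Fos, chr12:85473640-85473939, plus strand: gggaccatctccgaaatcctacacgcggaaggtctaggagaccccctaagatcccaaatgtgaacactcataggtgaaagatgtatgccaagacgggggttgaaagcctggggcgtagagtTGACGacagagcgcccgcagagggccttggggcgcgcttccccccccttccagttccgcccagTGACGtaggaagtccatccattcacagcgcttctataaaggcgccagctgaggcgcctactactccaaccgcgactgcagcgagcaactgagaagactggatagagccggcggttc
The Arl5b promoter holds 3 half-sites, of which a pair forms the full palindrome, and its RefSeq start lies 5925 bases from the outermost start of the GENCODE gene. The Btaf1 promoter holds 3 as well, again with a palindrome, here just before the start site, and Btaf1 was a gene that fell. The Srsf10 promoter holds 1 and the Fos promoter 2. The other 3 promoters of genes that passed (Arrdc3, Utp14b and Ide) hold none. For Ide the RefSeq start lies 3308 bases inside the outermost start of the gene, where no promoter was read. The half-site was present in 3 of these 6 promoters, in 31.0% of 11262 promoters of measured genes (1 per gene) and in 20.8% of all 32851 promoters of the table. A match of letters describes the sequence and does not show that a factor binds there.

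The 3 genes that fell were Ttr and a pair of neighbours on chromosome 19, Ide and Btaf1. Ttr (ENSMUSG00000061808), the transport protein for thyroid hormone and retinol that the choroid plexus secretes and that binds amyloid beta, stood at 63.1, 46.1 and 59.6 CPM with eGFP and at 18.8, 14.3 and 16.8 CPM with mVEGF-C. The mean of 3 mice fell from 56.2 ± 8.99 (SD) to 16.6 ± 2.24 CPM, 3.38-fold lower and -1.76 on the log2 scale (SE 0.244, adjusted p = 0.0176, edgeR's quasi-likelihood test). Under mIgG the mVEGF-C mice were also lower on average (25.2 ± 5.28 against 51.6 ± 21.9 CPM, log2 change -1.02, SE 0.235), but with eGFP+mIgG mice at 30.4 to 74.2 CPM this did not pass (adjusted p = 0.28, edgeR's quasi-likelihood test).

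Ttr was accompanied by other markers of the choroid plexus, the epithelium in the ventricles that makes cerebrospinal fluid and lies against the hippocampus. Of 14 measured markers 12 were lower and 2 higher, 7 had an unadjusted p under 0.05 and were lower (50%, beside 6.81% of all genes), and only Ttr passed. The median log2 change was -0.61, and -0.58 without Ttr. Kcnj13, a potassium channel, stood at 1.45, 1.11 and 0.974 CPM with eGFP and at 0.384, 0.526 and 0.563 CPM with mVEGF-C (log2 change -1.27, SE 0.287, adjusted p = 0.0961, edgeR's quasi-likelihood test). Folr1, a folate receptor, went from a mean of 1.64 ± 0.182 to 0.823 ± 0.241 CPM (log2 change -1.0, adjusted p = 0.124). In bulk tissue, fewer cells of a type and less RNA per cell cannot be told apart, and how much choroid plexus came along at dissection was not tested. With the mean level of the other choroid plexus markers in the model, 0 genes passed, and 874 had an unadjusted p under 0.05. Ttr then had a log2 change of -1.99 (adjusted p = 0.267, edgeR's quasi-likelihood test). The mean centred log2 level of the whole list ran from 0.07 to 0.34 in eGFP+mAdu and from -0.67 to -0.18 in mVEGF-C+mAdu. Such a covariate follows the groups, so the fit could not separate it from the vector.

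Ide (ENSMUSG00000056999, chr19:37268743-37337852, minus strand) encodes a metalloprotease of many small peptides, among them insulin and amyloid beta. It stood at 98.8, 99.2 and 100.4 CPM with eGFP and at 79.6, 80.5 and 83.1 CPM with mVEGF-C, so the mean fell from 99.5 ± 0.862 to 81.0 ± 1.81 CPM (SD, n = 3), 1.23-fold lower (log2 change -0.30, SE 0.0377, adjusted p = 0.0130, edgeR's quasi-likelihood test). Btaf1 (ENSMUSG00000040565, chr19:36926079-37012752, plus strand), which encodes an ATPase that removes the TATA-binding protein from DNA, stood at 110.2, 111 and 116 CPM with eGFP and at 97.8, 95.1 and 95.4 CPM with mVEGF-C (log2 change -0.22, SE 0.0363, adjusted p = 0.0325). For both genes it was the eGFP+mAdu group that stood highest of the 4, since Ide ran from 70.2 to 76.7 CPM and Btaf1 from 80.3 to 89.7 CPM in the 6 mIgG mice. The mVEGF-C+mAdu mice lay in between and above all 6 mIgG mice.

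Of the 14 measured genes on the stretch from 500 kb before Btaf1 to 500 kb after Ide, only these 2 passed. Fgfbp3, a carrier of fibroblast growth factors whose start lies 418 kb from that of Ide and next to Btaf1, had 5.23, 5.86 and 6.17 CPM with eGFP and 4.15, 4.41 and 4.71 CPM with mVEGF-C (log2 change -0.38, SE 0.105, adjusted p = 0.138, edgeR's quasi-likelihood test). The mIgG mice ran from 4.13 to 4.75 CPM, so the eGFP+mAdu mice stood above all others here too, as for Ide and Btaf1. Cpeb3, a translational regulator that lies between Btaf1 and Ide, had a change of 0.10 with adjusted p = 0.430. On the far side of Fgfbp3, Ppp1r3c, a glycogen-targeting subunit of protein phosphatase 1, had 77.0, 81.5 and 76.7 CPM with eGFP and 91.5, 93.7 and 95 CPM with mVEGF-C (log2 change 0.25, adjusted p = 0.0804), and Tnks2 had a change of 0.12 (adjusted p = 0.166). The changes of the 11 genes other than Ide, Btaf1 and Fgfbp3 ran from -0.49 to 0.25 with a median of 0.07. March5, which also lies between Btaf1 and Ide, had a change of -0.004. A stretch of chromosome 19 that includes Ide and Fgfbp3 is known to differ in copy number between mice of C57BL/6J stocks. The DNA of these mice was not analysed here, and its part was not tested.

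**Figure D4:**
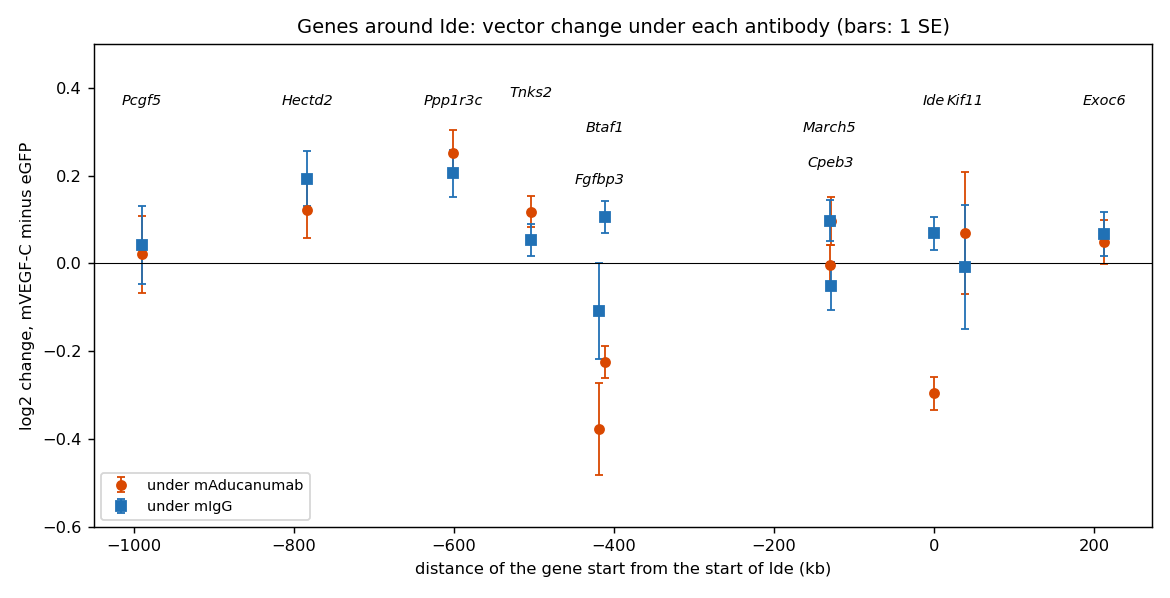
Log2 change between the vectors with 1 SE, under mAducanumab (circles) and under mIgG (squares), against the distance of each gene start from the start of Ide in kb, for the 11 of 14 genes with an SE under 0.2. Ide, Btaf1 and Fgfbp3 lie below -0.20 under mAducanumab, while Cpeb3 and March5 between them lie near 0.

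Among genes that make or clear amyloid beta, Ide and Ttr were the only ones that passed in edgeR's fit of all 12 libraries. Of 23 measured genes of amyloid degradation and transport, 5 had an unadjusted p under 0.05 and all 5 were lower, beside 6.81% of all genes. These 5 include Ide and Ttr, and the median change of the list was -0.04. Apoe, the main lipid carrier of the brain, stood at 1465, 1470 and 1403 CPM with eGFP and at 1281, 1314 and 1286 CPM with mVEGF-C, a log2 change of -0.16 (SE 0.0424) that did not pass (adjusted p = 0.124, edgeR's quasi-likelihood test) and was -0.074 after correction of each library for GC content and transcript length. A2m, a protease inhibitor that binds amyloid beta, had 6.10, 10.4 and 6.82 CPM against 4.26, 5.01 and 4.95 CPM (log2 change -0.71, adjusted p = 0.194). Of 20 genes of the precursor family and its secretases 0 passed, and the median was -0.01. At an unadjusted p under 0.05, 3 were higher, beside 7.45% of all genes. They included Aph1b, a γ-secretase subunit (log2 change 0.20, SE 0.0466, adjusted p = 0.0961), and Adam10, the main α-secretase (0.13, adjusted p = 0.30), with Prnp, low in mice 5 and 6, as the third. After the GC and length correction the changes were 0.15 for Aph1b, 0.07 for Adam10 and 0.55 for Prnp.

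Genes of microglia and of innate immunity were lower with mVEGF-C as groups, while 0 of their members passed in edgeR's fit of all 12 libraries. Of 26 measured genes of disease-associated microglia, the state that microglia take on at amyloid plaques, 24 were lower and 12 had an unadjusted p under 0.05, all lower (46.2%, beside 6.81% of all genes), with a median log2 change of -0.22. Of 17 homeostatic microglial genes 16 were lower, 9 of them at an unadjusted p under 0.05, with a median of -0.14. Cst7, an inhibitor of lysosomal proteases that marks plaque-associated microglia, stood at 0.485, 1.47 and 0.812 CPM with eGFP and at 0.192, 0.202 and 0.241 CPM with mVEGF-C (log2 change -2.09, SE 0.631, adjusted p = 0.166, edgeR's quasi-likelihood test). Mouse 5, with the least App, was the highest. Lgals3bp, a secreted galectin-3 ligand, had 9.39, 12.6 and 11.2 CPM against 6.41, 5.94 and 7.69 CPM (log2 change -0.72, SE 0.141, adjusted p = 0.0671). Tmem119, a marker of resident microglia, had 21.7, 28.8 and 23.7 CPM against 16.7, 19.8 and 20.3 CPM (log2 change -0.38, adjusted p = 0.126), and Olfml3, also of resident microglia, had 24.6, 26.9 and 26.1 CPM against 21.5, 19.7 and 19.6 CPM (log2 change -0.35, adjusted p = 0.0556). In each of these 4 genes all 3 mVEGF-C mice lay below all 3 eGFP mice, which a choice by small p largely entails. Over the disease-associated and homeostatic lists this held for 13 of 26 and 6 of 17 genes, beside 10.2% of all genes.

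Complement, antigen presentation and the interferon response showed the same picture. Of 13 complement genes 12 were lower and 7 had an unadjusted p under 0.05, with a median of -0.31. C1qa and C1qc, chains of C1q, the first component of the classical pathway, changed by -0.35 and -0.33 on the log2 scale without passing (adjusted p = 0.157 and 0.124), and C3 by -0.52 (adjusted p = 0.194). Hc, which encodes complement C5, had 1.59, 1.18 and 1.42 CPM with eGFP and 0.384, 0.485 and 0.443 CPM with mVEGF-C (log2 change -1.67, SE 0.299, adjusted p = 0.0556, edgeR's quasi-likelihood test). All 18 measured genes of antigen presentation were lower, 12 of them at an unadjusted p under 0.05, with a median of -0.40. H2-K1 and H2-D1, classical class I genes whose near-identical relatives make their counts uncertain, changed by -0.39 and -0.41 (adjusted p = 0.167 and 0.205). Of 25 interferon-response genes 23 were lower and 12 had an unadjusted p under 0.05, with a median of -0.37. Irf7, the transcription factor that amplifies type I interferon, stood at 1.42, 1.95 and 1.74 CPM with eGFP and at 0.845, 0.930 and 0.644 CPM with mVEGF-C (log2 change -1.07, SE 0.244, adjusted p = 0.0961). Ifit3 had a change of -0.53 (adjusted p = 0.168). Of 13 Fc receptor and effector genes 11 were lower and 3 had an unadjusted p under 0.05 (23.1%, beside 6.81% of all genes). Fcgr2b, the inhibitory Fc receptor, had a change of -0.40 (adjusted p = 0.275).

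These immune lists had smaller median changes without mice 5 and 6. With mouse 4 as the only eGFP+mAdu mouse, assumed to vary like the other groups, the median was -0.05 for disease-associated microglia, -0.03 for homeostatic microglia, -0.12 for the interferon response, -0.13 for complement, -0.24 for antigen presentation and -0.087 for Fc receptors. The number of members at an unadjusted p under 0.05 and lower was then 4 of 26, 1 of 17, 4 of 25, 2 of 13, 5 of 18 and 1 of 13, beside 7.26% of all genes in that fit. Cst7 then had a change of -1.18, Tmem119 -0.19, C1qa -0.17, C1qc -0.18, H2-K1 -0.26, H2-D1 -0.23, Ifit3 -0.31 and Fcgr2b -0.25. The mean centred log2 level of disease-associated microglia was -0.19, 0.23 and -0.00 in mice 4, 5 and 6, and -0.30, -0.31 and -0.30 in mice 10, 11 and 12. For this list mouse 4, with App like that of the other groups, thus lay nearer to the mVEGF-C mice than mice 5 and 6. Mouse 4 was also the lowest of its group for homeostatic microglia, complement, the interferon response and Fc receptors. For antigen presentation, however, the levels were 0.09, 0.04 and 0.15 in mice 4, 5 and 6, so mouse 5 was nearest. The part of low App was not tested. Under mIgG the median change was 0.07 for disease-associated microglia, 0.03 for complement and 0.32 for the interferon response. The interferon level there was 0.02, 0.57 and 0.37 in mice 7, 8 and 9 and -0.07 to 0.09 in eGFP+mIgG. Mouse 7 thus lay within the eGFP range. The difference between the antibodies passed for none of the named immune genes. For Irf7 it was -1.61 (SE 0.326, adjusted p = 0.269, edgeR's quasi-likelihood test) and for Ifit3 -1.12 (SE 0.220, adjusted p = 0.219).

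**Figure D5:**
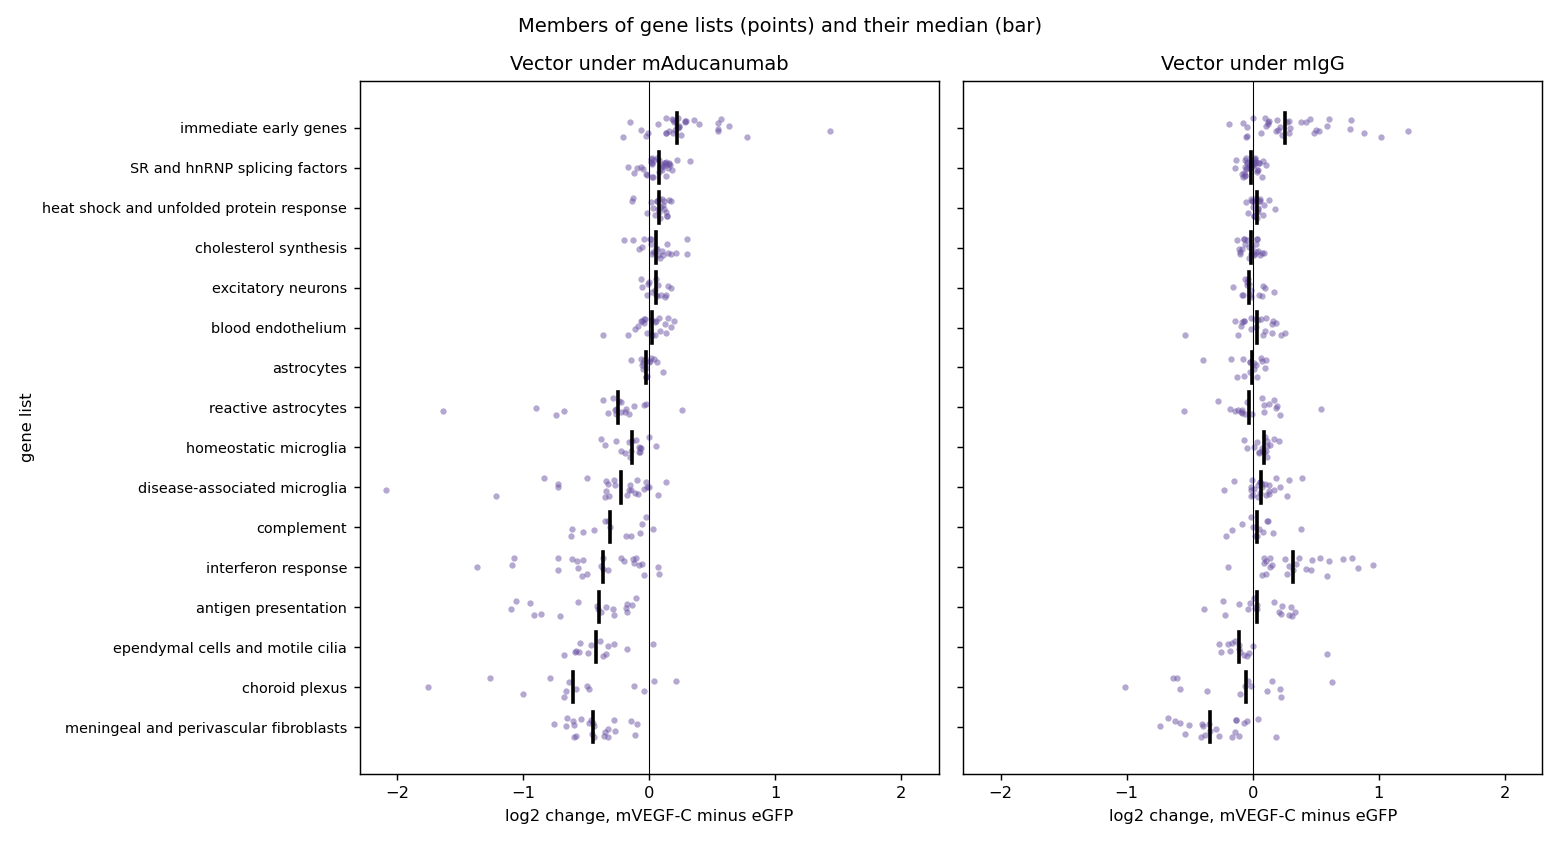
Log2 change of each measured member (points) and the median (bar) of 16 gene lists, for the vector under mAducanumab (left) and under mIgG (right). Under mAducanumab the medians run from -0.61 for choroid plexus to 0.22 for immediate early genes. The interferon list has medians of opposite sign under the 2 antibodies, though its level in mouse 7 of mVEGF-C+mIgG lay within the eGFP+mIgG range.

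Markers of the cells that border the brain were also lower. All 23 measured markers of meningeal and perivascular fibroblasts were lower, with a median of -0.44, and 0 passed. Of these markers 17 had an unadjusted p under 0.05 (73.9%, beside 6.81% of all genes). Col1a2, a chain of type I collagen, stood at 15.9, 8.47 and 13.6 CPM with eGFP and at 6.34, 8.97 and 7.16 CPM with mVEGF-C (log2 change -0.76, SE 0.182, adjusted p = 0.102, edgeR's quasi-likelihood test). Ptgds, the prostaglandin D synthase abundant in the leptomeninges, had 356, 170 and 272 CPM against 166, 188 and 173 CPM (log2 change -0.60, adjusted p = 0.134). In both genes mouse 5 lay among the mVEGF-C mice and mouse 4 was highest. Both passed without mouse 5 (Col1a2 -0.98, adjusted p = 0.0093; Ptgds -0.84, adjusted p = 0.000627) and without mice 5 and 6 (-1.09, adjusted p = 0.0229, and -1.02, adjusted p = 7.01e-06). Without mouse 4 they had changes of -0.55 and -0.33. Accordingly the median of the list was -0.85 without mice 5 and 6 and -0.24 without mouse 4, whereas the median of disease-associated microglia was -0.05 and -0.26 in these fits. Under mIgG the median was -0.34. Of 14 ependymal and ciliary markers 13 were lower, 6 at an unadjusted p under 0.05 (42.9%, beside 6.81% of all genes), with a median of -0.43. Ccdc153, which marks ciliated ependymal cells, had 9.35, 7.18 and 8.85 CPM against 4.15, 6.99 and 5.80 CPM (log2 change -0.59, adjusted p = 0.129), and Tmem212 had a change of -0.68 (adjusted p = 0.217). Mouse 10 was the lowest of the 6 for the mean level of both the choroid plexus and the ependymal list. Without it the choroid plexus median was -0.39 and the ependymal median -0.33. When the model held the choroid plexus markers as a covariate, the ependymal median turned to 0.15 and the fibroblast median was -0.10. That covariate itself differed between the groups, as given above, so this fit could not separate it from the vector. How far meninges and ventricle lining came along with each hippocampus was not tested.

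The targets of VEGF-C showed no change that passed in edgeR's fit of all 12 libraries. Vegfc itself had 3.5, 3.13 and 3.25 CPM in the eGFP mice and 2.65, 3.44 and 2.86 CPM in the mVEGF-C mice (log2 change -0.15, SE 0.174, adjusted p = 0.738, edgeR's quasi-likelihood test), so transcript of the vector was not detectable as a higher Vegfc level in this tissue. Flt4 had 1.39, 1.03 and 1.66 CPM against 1.31, 1.13 and 1.37 CPM (log2 change -0.09, SE 0.198). Of 15 ligands, receptors and processing factors of the VEGF family, 2 had an unadjusted p under 0.05 and were higher and 1 lower. The shares of all genes at that p were 7.45% higher and 6.81% lower. Nrp1, a co-receptor of VEGF-A, stood at 146, 157 and 147 CPM with eGFP and at 179, 171 and 176 CPM with mVEGF-C (log2 change 0.23, SE 0.0682, adjusted p = 0.165). Vegfd, the closest relative of VEGF-C, had 1.91, 2.06 and 1.66 CPM against 1.57, 0.849 and 1.57 CPM (log2 change -0.49, adjusted p = 0.307). Of 22 blood endothelial markers none had an unadjusted p under 0.05, and the median was 0.02. Of 9 lymphatic endothelial markers 5 were in the table, and the one with the smallest p was Reln, a gene that hippocampal neurons also express (log2 change -0.41, adjusted p = 0.115). Reln passed without mouse 5 (-0.55, adjusted p = 0.0123) and without mice 5 and 6 (-0.63, adjusted p = 0.0277), and had a change of -0.29 without mouse 4.

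Immediate early genes, which neurons and other cells switch on within minutes of activity, were higher with mVEGF-C. Of 34 measured members 29 were higher, 14 of them at an unadjusted p under 0.05 (41.2%, beside 7.45% of all genes), and the median was 0.22. The list contains Arl5b and Arrdc3, which were put on it with their result known. Without them 27 of 32 were higher, 12 at an unadjusted p under 0.05, with a median of 0.22, and 0 passed. Egr2, a zinc-finger transcription factor, stood at 2.39, 2.87 and 2.23 CPM with eGFP and at 3.73, 9.90 and 6.76 CPM with mVEGF-C, 2.70-fold higher (log2 change 1.43, SE 0.277, adjusted p = 0.0671, edgeR's quasi-likelihood test). Fos had 18.9, 16.3 and 15.8 CPM against 23.2, 36.4 and 27.8 CPM (log2 change 0.77, SE 0.156, adjusted p = 0.0762). For both genes mouse 11 was highest and the groups did not overlap, as for 11.5% of all genes in that direction. The mean level of the list was -0.14, -0.12 and -0.15 in mice 4 to 6 and -0.04, 0.31 and 0.12 in mice 10 to 12, and without mouse 11 the median change was 0.16. The direction was the same in the other 6 mice, where the median was 0.26 and Fos rose by 1.02 on the log2 scale (SE 0.159, adjusted p = 0.0260). The difference between the antibodies was -0.24 for Fos (SE 0.223, adjusted p = 0.915) and 0.20 for Egr2 (SE 0.408, adjusted p = 0.982). The half-site shown above stood in 16 of the 27 promoters of this list that were matched, or 59.3%, beside 31.0% of measured genes. The 27 include Arl5b and Arrdc3. The list was made of genes that answer to activity, several of which are known to share this element. The share thus describes the list and says nothing about the vector. The time between the last handling of each mouse and dissection is not given in the sources used here, and its part was not tested.

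RNA-binding proteins and chaperones were slightly higher. Of 34 SR and hnRNP splicing factors 27 were higher, with a median of 0.07, and Srsf10 passed. At an unadjusted p under 0.05, 14 were higher (41.2%, beside 7.45% of all genes). Srsf7 stood at 78.2, 79.3 and 79.5 CPM with eGFP and at 87.1, 89.0 and 92.1 CPM with mVEGF-C (log2 change 0.18, SE 0.0445, adjusted p = 0.115, edgeR's quasi-likelihood test). Hnrnpu, a scaffold protein of nuclear RNA, had a change of 0.16 (adjusted p = 0.124), and Clk1, a kinase that phosphorylates SR proteins, 0.22 (adjusted p = 0.124). This list has a low GC content, with a median of 43.0% against 49.7% over all genes, and the log2 change over all genes was lower at higher GC content (Spearman's rho -0.36 over 14791 genes, which are not independent). The correlation of the centred level with GC content was 0.26, 0.07 and 0.00 in mice 4 to 6 and -0.45, -0.07 and -0.25 in mice 10 to 12. After correction of each library for GC content and transcript length the median of the list was 0.03 and 21 of 34 members were higher. At an unadjusted p under 0.05, 5 members were then higher and 2 lower, beside 5.58% and 6.1% of all genes in that fit. Srsf10 then had a change of 0.26 (adjusted p = 0.0835), while Arl5b, Ide, Ttr and Btaf1 passed. The median of the immediate early list was 0.25 after this correction, so it was not lower.

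Of 22 heat shock and unfolded protein genes 19 were higher and 7 had an unadjusted p under 0.05. At that p 7.45% of all genes were higher and 6.81% lower. Hspa5, the main chaperone of the endoplasmic reticulum, stood at 277, 268 and 275 CPM with eGFP and at 292, 314 and 310 CPM with mVEGF-C (log2 change 0.16, SE 0.0374, adjusted p = 0.101, edgeR's quasi-likelihood test). Xbp1, a transcription factor of the unfolded protein response, had a change of 0.17 (adjusted p = 0.134). Of 23 cholesterol synthesis genes 7 were higher at an unadjusted p under 0.05. Cyp51, lanosterol demethylase, had 84.1, 82.0 and 86.6 CPM against 95.9, 101 and 94.9 CPM (log2 change 0.21, SE 0.0408, adjusted p = 0.0671), and Idi1 had a change of 0.30 (adjusted p = 0.135). Without mice 5 and 6 the median of the cholesterol list was -0.06 instead of 0.05.

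The genes next in line did not pass, with adjusted p from 0.0513 to 0.0566 for 8 higher genes and from 0.0556 to 0.0804 for 9 lower genes. The higher ones were Ippk, Bcl6, Rngtt, Rab8b, Ldah, Zfp189, Rnf19a and Fgfr1op2, with log2 changes from 0.21 to 0.38. Rngtt, the enzyme that caps messenger RNA, had 37.6, 37.7 and 39.1 CPM with eGFP and 44.4, 45.2 and 45.1 CPM with mVEGF-C. Its change of 0.23 was matched by 0.22 in the mIgG mice (adjusted p = 0.0556 and 0.113, edgeR's quasi-likelihood test). Bcl6, a transcriptional repressor, had 33.5, 33.9 and 32.7 CPM against 43.3, 47.4 and 39.4 CPM (log2 change 0.38, SE 0.0659). The lower ones beside Hc, Olfml3 and Lgals3bp were Rnase4, Plppr3, Drd1, Rprm, Cnih3 and Marc2, with changes from -0.49 for Drd1 to -0.22 for Marc2. Drd1, the D1 dopamine receptor, had 14.5, 15.3 and 13.3 CPM against 10.0, 9.86 and 10.9 CPM. It heads a list of 14 striatal markers of which 13 were lower and 5 had an unadjusted p under 0.05. At that p 6.81% of all genes were lower. Penk, which encodes proenkephalin, had a change of -0.46 (adjusted p = 0.151). The eGFP+mAdu group had the highest mean of the 4 groups for Penk (27.3 CPM, beside 18.6 in eGFP+mIgG and 20.1 in mVEGF-C+mIgG) and for Drd1 (14.4 CPM, beside 11.2 and 12.5). For Drd1 mouse 8 of mVEGF-C+mIgG, at 13.9 CPM, lay above mouse 6, at 13.3 CPM. Without mice 5 and 6 the striatal median was -0.36 instead of -0.22.

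Markers of several main cell classes of the hippocampus had medians near 0. The median was -0.03 for 16 astrocyte markers, 0.05 for 16 markers of excitatory neurons, -0.04 for 19 of inhibitory neurons and 0.04 for 20 of oligodendrocytes and myelin, and 0 members of these lists passed. The oligodendrocyte median was 0.21 without mice 5 and 6, with 9 of 20 members higher at an unadjusted p under 0.05, 0.13 without mouse 5 alone and -0.016 without mouse 4. The median of excitatory neurons was 0.095 without mice 5 and 6. Of 11 measured markers of oligodendrocyte precursors 8 were lower, 4 at an unadjusted p under 0.05 (36.4%), with a median of -0.13, and -0.064 after the GC and length correction. Of reactive astrocyte genes, by contrast, 19 of 20 were lower and 7 had an unadjusted p under 0.05 and were lower, with a median of -0.25. Among all genes 6.81% were lower at that p. Aspg, an asparaginase that marks reactive astrocytes, had 2.88, 4.13 and 3.29 CPM with eGFP and 1.88, 2.67 and 1.89 CPM with mVEGF-C (log2 change -0.67, SE 0.169, adjusted p = 0.115, edgeR's quasi-likelihood test). Gria2, a subunit of AMPA receptors, had 1258, 1246 and 1265 CPM against 1386, 1356 and 1377 CPM (log2 change 0.13, SE 0.0405, adjusted p = 0.173), and after the GC and length correction its change was 0.036 (adjusted p = 0.875). Mal, a myelin protein, had 242, 283 and 257 CPM against 301, 298 and 296 CPM (log2 change 0.20, adjusted p = 0.166).

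The 7 calls were not stable to the loss of single mice. With mouse 4, 6, 11 or 12 left out, 0 genes passed (1338 to 2083 genes then had an unadjusted p under 0.05), with mouse 10 left out 12 passed, and with mouse 5 left out 110 passed, including all 7. Of the genes named above as not passing, Bcl6, Ippk, Ldah, Rab8b, Rngtt, Rnf19a, Fgfr1op2, Zfp189, Egr2, Ppp1r3c, Hc, Plppr3, Cnih3 and Marc2 also passed without mouse 5. Egr2 and Fos passed without mouse 10 (adjusted p = 0.0111 and 0.0453, edgeR's quasi-likelihood test), and Rnf19a, Zfp189 and Cnih3 without mice 5 and 6. With both low-App mice left out 49 passed, of which 3 (Arl5b, Ttr and Utp14b) were among the 7. Ide and Btaf1 then had adjusted p = 0.0522 and 0.110 in edgeR's quasi-likelihood test. The 7 genes kept their sign in each of 15 alternatives, which is no independent check. All alternatives used the same mice. The groups did not overlap for any of the 7 genes, so leaving out mice could hardly turn a sign.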

How the data were processed

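Total RNA from 12 mice was amplified, sequenced and counted by the submitters. What the authors deposited is 1 table of whole-number read counts, with no scaling. The submitters' processing notes name STAR, featureCounts of Subread, Trim Galore, FastQC, edgeR and the build mm10. For versions, annotation and strand setting nothing was given in the sources used here. Symbols, coordinates, GC content and length came from GENCODE M21 (GRCm38), and 84 of 14881 identifiers stayed without a symbol.

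Counts were fitted with edgeR 4.0.16 (R 4.3.3, TMM scaling, filterByExpr, which removed no gene, 1 mean per group, all 12 libraries). The quasi-likelihood test was two-sided, with Benjamini-Hochberg adjustment over all genes and a threshold of 0.05. CPM are counts scaled to the TMM-adjusted library total. List levels are means of centred log2 CPM with a prior count of 2. Intervals from reads would cover counting error only. The code was tested on simulated data.

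Named genes were those that passed, the next smallest p up to 12 in each direction, up to 4 members per list by p, App, Prnp, Vegfc, Flt4, Cst7 and the genes within 500 kb of Ide and Btaf1. Acsl3, Nsun6 and ENSMUSG00000045999 were chosen after their values were seen. The genes and 45 lists were chosen with earlier results of these data known. Alternatives were DESeq2 1.42.0, limma-voom (limma 3.58.1), DESeq2 size factors, no filter, only the 6 libraries, a choroid plexus covariate, a GC and length correction, and libraries left out.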

Additional observations from a re-analysis of the deposited data

Results flagged for a closer look

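The change between the vectors differed between the 2 antibodies, by the test of the difference, for 2 of 14881 genes (0.0134%). For Ide the change was -0.30 under mAducanumab and 0.07 under mIgG, a difference of -0.36 (SE 0.0539, adjusted p = 0.0405, edgeR's quasi-likelihood test). All 3 eGFP+mAdu mice stood above the other 9, so the difference rests on that group. Btaf1 lay just past the threshold with a difference of -0.33 (SE 0.0519, adjusted p = 0.0545).

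The other gene was ENSMUSG00000045999, an identifier without a symbol in the annotation used, with a difference of 6.73 (SE 0.910, adjusted p = 0.0266, edgeR's quasi-likelihood test). It took 91435, 91826 and 24414 CPM in the 3 eGFP+mIgG mice and 108 to 1037 CPM in the other 9. In the 6 mAducanumab mice it ran from 108 to 236 CPM, so eGFP+mIgG was the group that stood apart.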

How the results depend on the processing

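No paired analysis was possible because library numbers run from 1 to 12 and no number occurs in 2 groups. The counts of genes that passed depended on the method. Higher and lower genes numbered 4 and 3 at first, 59 and 51 by the DESeq2 Wald test, 492 and 478 by limma-voom with quality weights, and 32 and 30 with only the 6 libraries fitted. They numbered 0 and 0 with the choroid plexus covariate, 1 and 3 after the GC and length correction, 0 and 0 without libraries 3, 6, 9 and 12, and 16 and 33 without libraries 5 and 6. Leaving out 1 library gave 0 to 49 higher and 0 to 61 lower genes. The 7 genes passed by DESeq2, by limma-voom and with the 6 libraries alone. DESeq2 size factors and no filter gave the same 7 genes. Lgals3bp, Olfml3, Fos and Drd1, named above as not passing, passed by DESeq2, by limma-voom and with the 6 libraries alone. Hc, H2-K1, H2-D1, Penk and Nrp1 passed by limma-voom and with the 6 libraries alone. C1qc, Tmem119, Apoe, Aph1b and Col1a2 passed by DESeq2 and limma-voom. By limma-voom alone Cst7, Irf7, Ifit3, C1qa and C3 passed, while Fcgr2b passed in none. The vector under mIgG gave 6 genes, 20 by DESeq2, 937 by limma-voom and 1 to 52 with 1 library left out.

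The difference between antibodies gave 2 genes, 8 by DESeq2, 220 by limma-voom, 0 with the covariate, 0 without libraries 3, 6, 9 and 12, 0 without libraries 5 and 6, and 0 to 36 with 1 library left out (36 without mouse 7). For Ide adjusted p ran from 0.00631 to 0.240 with 1 library left out, and the difference from -0.40 to -0.34.

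Signs turned for App without libraries 5 and 6 (-0.033), and with the covariate for Vegfc (0.053), Ccdc153 (0.023) and Tmem212 (0.31). The ependymal median also turned with the covariate (0.15), as did that of 4 border-associated macrophage markers (from -0.20 to 0.059, and 0.042 without mouse 4) and of oligodendrocytes (-0.037). Other medians near 0 turned as well, among them blood endothelium (-0.090) and inhibitory neurons (0.025) with the covariate. Without libraries 5 and 6 this held for astrocytes (0.013) and blood endothelium (-0.051). For Flt4 the change was 0.0068 without libraries 3, 6, 9 and 12 and ran from -0.26 to 0.066 with 1 library left out. The causes were not tested, apart from fewer libraries in the fits that leave some out. Libraries 3, 6, 9 and 12 are intermediate, so a kept direction without them is no check of a change. Genes under about 1 CPM, such as Cst7 and Kcnj13, rest on few reads.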

Other observations

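Genes that follow stress hormones and the daily clock were not described above. Of 18 measured genes of the glucocorticoid response and metallothioneins, 4 were higher and 2 lower at an unadjusted p under 0.05. Among all genes 7.45% were higher and 6.81% lower at that p. The median log2 change of the list was 0.06. Tsc22d3, a direct target of the glucocorticoid receptor, stood at 67.3, 69.3 and 65.3 CPM with eGFP and at 75.4, 92.2 and 81.1 CPM with mVEGF-C (log2 change 0.30, SE 0.0665, adjusted p = 0.0957, edgeR's quasi-likelihood test). Sgk1, a kinase induced by glucocorticoids, had 68.5, 72.7 and 68.7 CPM against 74.1, 109 and 88.6 CPM (log2 change 0.37, SE 0.101, adjusted p = 0.134). Mouse 11 was highest for both, as it was for Fos and Egr2. Sgk1 had a change of 0.22 without mouse 11, and of 0.50 without mouse 10, where it passed (adjusted p = 0.0494).

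Of 18 clock genes 5 were higher at an unadjusted p under 0.05 (beside 7.45% of all genes), with a median of 0.06. This median was 0.17 without mice 5 and 6, 0.017 without mouse 4 and 0.028 without mouse 11. Nfil3, a repressor of the clock output, had 8.69, 10.1 and 9.05 CPM against 11.4, 14.6 and 12.7 CPM (log2 change 0.47, SE 0.109), and Hlf, an activator of it, had 63.7, 79.7 and 73.7 CPM against 88.6, 88.2 and 87.9 CPM (log2 change 0.29, SE 0.0826, and 0.47 without mice 5 and 6). Neither passed. Among thyroid hormone genes, Dio2, which makes the active hormone, had 56.7, 59.7 and 59.0 CPM against 67.4, 69.4 and 68.2 CPM (log2 change 0.23, adjusted p = 0.143, edgeR's quasi-likelihood test), with the same 0.23 under mIgG. Rxrg, a partner of the thyroid hormone receptor, had a change of -0.60 (adjusted p = 0.134).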
